A study of Homo sapiens with 6 samples.

Results

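The 10 genes described here encode carriers of large neutral and cationic amino acids, and were read by symbol from a table of 24462 different gene symbols. They are SLC3A2, SLC7A5, SLC7A6, SLC7A8, SLC7A1, SLC7A2, SLC43A1, SLC43A2, SLC36A1 and SLC36A4, and each stood on 1 row. The cells were U87MG, an established human glioblastoma line maintained in DMEM with 10% fetal bovine serum and antibiotics. The deprived group was kept for 24 h in medium without serine or glycine, and the complete group for 24 h in medium that held both, with 3 libraries per group, named deprived 1 to 3 and complete 1 to 3. Whether a group's libraries came from separate cultures is not stated in the labels, nor whether the 24 h media held serum, so p-values measure only library-to-library spread, and that may be technical. Sequencing was from the 3′ end of messenger RNA (QuantSeq), so counts do not scale with transcript length.

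Most of these proteins do not carry serine or glycine as their main substrates. SLC3A2 is a heavy chain that takes light chains of the SLC7 family to the cell surface, where the pair exchanges one amino acid for another. SLC7A5 (LAT1) brings in leucine and other bulky essential amino acids in exchange for glutamine, and supplies the leucine that the growth kinase complex mTORC1 senses. Several genes of this group are textbook targets of ATF4, the transcription factor whose translation increases when amino acids run short.

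Library totals were 6249706 to 7247995 counts, and a count of 3, used here as a floor, corresponded to 0.414 to 0.480 CPM, counts scaled to a fixed library size. Libraries did not sort by their labels: the first principal component, with 51.4% of the variance, placed deprived 1, deprived 3 and complete 1 on one side and deprived 2, complete 2 and complete 3 on the other. Whether the labels or column headers of deprived 2 and complete 1 were exchanged could not be settled from the files, and every mean, fold change and p by label takes them as deposited; an exchange would change what each of those values means. Results are therefore given for all 6 libraries by label, and again without deprived 2 and complete 1, a pair chosen because its values were known, so that the second value is no independent test of the medium. All 8 markers of the line, such as vimentin, were detected, and 6 of them were lowest in deprived 1, deprived 3 and complete 1; their summed level was 12918 to 15882 CPM in deprived and 13483 to 16108 CPM in complete medium. The glial markers summed to 10.5 to 12.8 CPM in deprived and 7.06 to 12.8 CPM in complete medium, with GFAP under 1 CPM and 5 of 10, OLIG1, SOX10, S100B, AQP4 and ALDH1L1, at 0. Leukocyte markers, with 4 of 9 at 0, summed to 65.8 to 72.7 CPM in deprived and 50.6 to 67.4 CPM in complete medium, nearly all of it from CD68, and epithelial and endothelial markers, with 3 of 9 at 0, to 2.69 to 4.59 CPM in deprived and 2.23 to 3.88 CPM in complete medium. The labels call the cells epithelial, and no gene of that last list was above 2.29 CPM. Neuronal markers, of which 5 of 7 reached 3 counts in some library, summed to 265 to 309 CPM in deprived and 278 to 316 CPM in complete medium. The part of these markers in the transporter values was not tested.

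Compared by label, no transporter gene passed the test against the spread between libraries. Of the 10 genes, 9 had enough counts to be tested, and 0 of the 9 passed when edgeR's quasi-likelihood p was adjusted by Benjamini-Hochberg at 0.05, beside 0% of the 13068 genes tested. At an unadjusted edgeR p under 0.05 there were 0 of the 9 and 1.89% of all genes, and DESeq2 and limma-voom also called 0 genes. The deprived and complete libraries overlapped for each of the 9, where 6.97% of all genes had no overlap. The log2 fold change was positive for 7 of the 9, with a median of 0.21, beside 51.0% of all genes positive and a median of 0.0033. With 1 library left out the median of the 9 was lower each time, at 0.08 without deprived 3, 0.10 without complete 3, 0.11 without deprived 1 and at most 0.17, without complete 1. SLC7A5, SLC3A2, SLC7A8 and SLC43A1 each had their 3 highest values in deprived 1, deprived 3 and complete 1, which was so for 18.3% of all genes, and 0 of the 9 had their 3 lowest values there, against 17.7% of all genes. Without deprived 2 and complete 1, these same 4 genes passed the adjusted p of 0.05, all higher in deprived medium, beside 8.57% of 13145 genes called higher and 7.38% called lower. Since all 4 were highest in deprived 1, deprived 3 and complete 1, their direction after leaving out that pair was fixed beforehand. Their p-values without the pair are therefore no separate support. Of these 4, SLC43A1 passed the filter on low counts only through libraries where it was high, so its place in both counts was favoured by the filter. In bulk RNA, fewer cells that express a gene and less of its RNA per cell cannot be told apart.

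**Figure D1:**
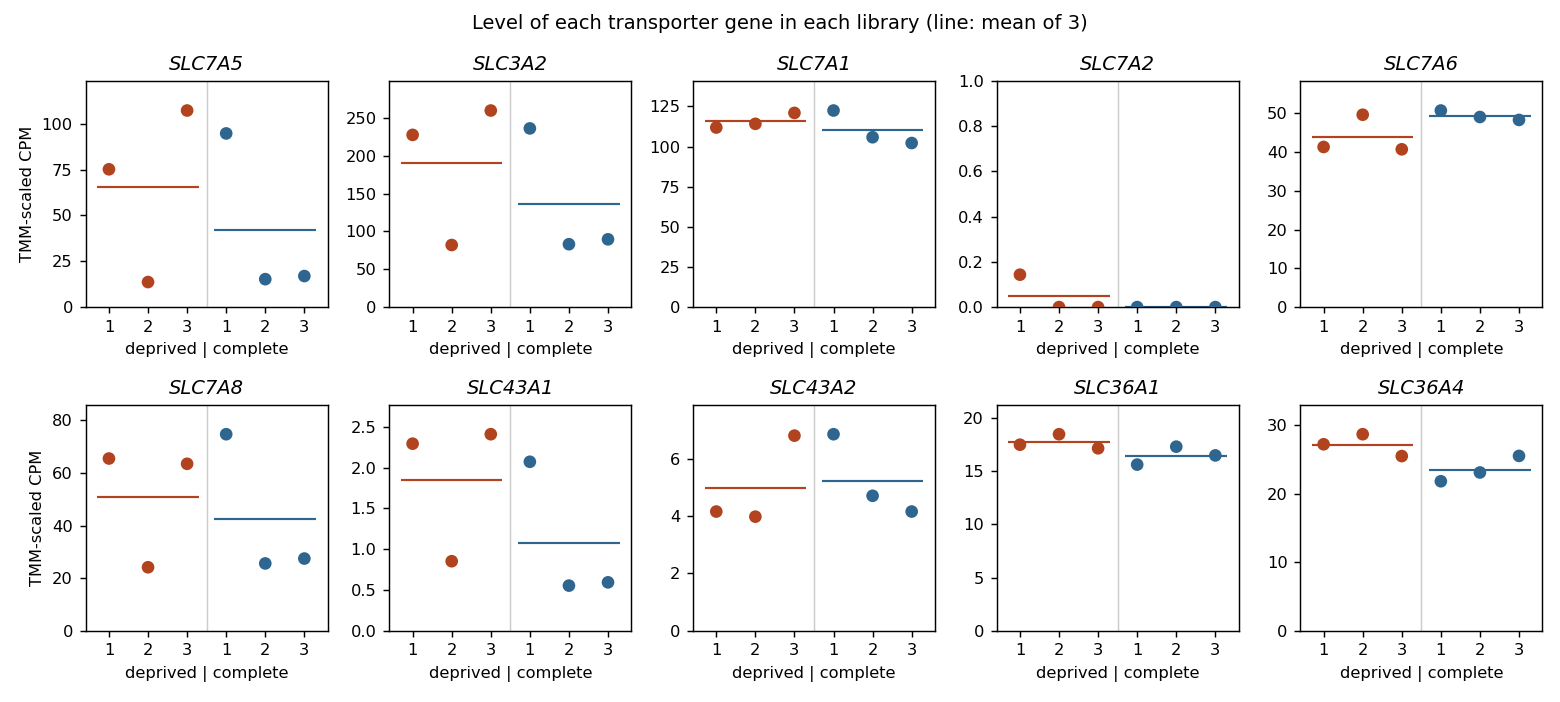
Level of each of the 10 genes in each library, as CPM scaled by the TMM method (vertical axes start at 0 and differ between panels). Points are libraries 1 to 3 of the deprived group in red and of the complete group in blue, and lines are the means of 3. SLC7A5, SLC3A2, SLC7A8 and SLC43A1 have deprived 2 beside complete 2 and complete 3, while SLC7A1, SLC7A6, SLC36A1 and SLC36A4 stay within narrow ranges.

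SLC3A2, the shared heavy chain also known as 4F2hc or CD98, measured 228, 82.0 and 260 CPM in deprived 1, 2 and 3, against 236, 83.1 and 89.6 CPM in complete 1, 2 and 3. Levels in deprived 2, complete 2 and complete 3 thus stood close together and far below the other libraries, across the labels. It averaged 190 ± 94.7 CPM in deprived and 136 ± 86.5 CPM in complete medium (SD, n = 3 each). By label its log2 fold change, with its standard error (SE), was 0.48 (SE 0.47, edgeR adjusted p = 0.999). With 1 library left out it ran from 0.19 without deprived 3 to 1.14 without complete 1. Without both deprived 2 and complete 1, a choice that fixed its direction beforehand, it was 1.50 (SE 0.08, edgeR adjusted p = 1.28e-15). The edgeR estimate of the coefficient of variation between libraries of a label, 39.5%, was at the 98.6th percentile of the genes tested.

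SLC7A5, the light chain that forms LAT1, varied more than any other of the 9 genes. It stood at 75.1, 13.6 and 107 CPM in deprived 1, 2 and 3, from 524, 96 and 756 counts, and at 94.7, 15.2 and 16.9 CPM in complete 1, 2 and 3, from 594, 110 and 114 counts. Complete 1 lay between the high deprived libraries and deprived 2 lay below every complete library. The averages by label were 65.3 ± 47.5 CPM in deprived and 42.3 ± 45.4 CPM in complete medium (SD, n = 3 each), with a log2 fold change of 0.64 (SE 0.77, edgeR adjusted p = 0.999). Leaving out 1 library gave values from 0.08, without deprived 3, to 2.02, without complete 1. Without both deprived 2 and complete 1, a choice that fixed its direction beforehand, the log2 fold change was 2.50 (SE 0.15, edgeR adjusted p = 4.42e-15). Its coefficient of variation within labels, 64.1%, was at the 99.8th percentile. SLC7A5 has near-identical partial copies, so its counts are uncertain to that extent: the row of SLC7A5P2 held 45, 36 and 39 counts in deprived 1, 2 and 3, against 68, 33 and 46 counts in complete 1, 2 and 3, and SLC7A5P1 held at most 2.

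The start of SLC7A5 is shown because this gene had the widest spread of the 9. RefSeq windows of 250 bases before to 50 bases after annotated starts were taken from GRCh38.p14, a build used for sequence only. That of the counts is not given in the sources used here. SLC7A2 was left out of the search, and the other 9 of the 10 genes gave 19 windows in all. They were searched for TGATGNAA, the core of the amino acid response element bound by ATF4 with C/EBP partners, on both strands, and for CACGTG, the E-box of MYC and of the lysosomal factors TFEB and TFE3, which reads the same on both strands. The 250 bases before the single SLC7A5 start, chr16:87869508-87869757 on the minus strand, hold 1 E-box, 130 bases before the start and given in capitals:
SLC7A5: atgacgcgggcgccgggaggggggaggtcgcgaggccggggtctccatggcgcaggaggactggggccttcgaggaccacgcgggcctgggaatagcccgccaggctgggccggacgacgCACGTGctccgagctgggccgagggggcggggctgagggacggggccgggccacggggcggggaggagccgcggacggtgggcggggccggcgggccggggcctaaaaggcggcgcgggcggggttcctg
The TGATGNAA core was found in 2 genes with 1 match each, both just after a start, in SLC3A2 (first base 37 after the start, chr11:62881725-62881748, plus strand, where the core reads on the opposite strand) and in SLC7A1 (7 after the start, chr13:29595663-29595692, minus strand), with the core in capitals:
SLC3A2: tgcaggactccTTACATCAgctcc
SLC7A1: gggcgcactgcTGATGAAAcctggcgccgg
Of all 35116 windows, 3.62% hold TGATGNAA and 7.26% hold CACGTG, and by gene the shares are 4.46% and 8.77%. The E-box was in windows of 4 genes, SLC7A5, SLC7A8, SLC43A1 and SLC36A1, the last with 2 matches, and matches of the 2 motifs did not overlap. Sites outside these windows were not searched, and a link between either motif and the levels was not tested. A match of letters in a window is a description and shows no binding.

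SLC7A8 (LAT2) is a second light chain of SLC3A2, which carries small as well as large neutral amino acids. It measured 65.5, 24.2 and 63.5 CPM in deprived 1, 2 and 3, against 74.8, 25.6 and 27.5 CPM in complete 1, 2 and 3. The same libraries were high and low as for SLC3A2, and complete 1 was the highest of all 6. By label it averaged 51.1 ± 23.3 CPM in deprived and 42.6 ± 27.9 CPM in complete medium (SD, n = 3 each), a log2 fold change of 0.27 (SE 0.45, edgeR adjusted p = 0.999). Its direction turned when complete 2 was left out, at -0.00021, and reached 0.94 without complete 1. Without deprived 2 and complete 1 together, a choice that fixed its direction beforehand, the value was 1.28 (SE 0.12, edgeR adjusted p = 7.95e-10).

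SLC7A6 (y+LAT2) is the light chain with which SLC3A2 exports arginine in exchange for a neutral amino acid and sodium. Its levels were 41.3, 49.6 and 40.7 CPM in deprived 1, 2 and 3, against 50.7, 49.0 and 48.3 CPM in complete 1, 2 and 3. Deprived 1 and deprived 3 were the lowest, deprived 2 lay among the complete libraries, and complete 1 was the highest. Averages were 43.9 ± 4.98 CPM in deprived and 49.3 ± 1.24 CPM in complete medium (SD, n = 3 each), with a log2 fold change of -0.17 (SE 0.11, edgeR adjusted p = 0.999). Leaving out 1 library gave -0.27 to -0.12, and leaving out deprived 2 and complete 1 gave -0.25 (SE 0.12, edgeR adjusted p = 0.165). SLC7A6 overlaps SLC7A6OS on the opposite strand in GENCODE 29, and how strand was counted is not given in the sources used here. The SLC7A6OS row held 162, 176 and 155 counts in deprived 1, 2 and 3, against 165, 197 and 160 counts in complete 1, 2 and 3.

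The light chains did not keep a constant proportion to the heavy chain. Per 100 CPM of SLC3A2, SLC7A5 stood at 33.0, 16.6 and 41.3 CPM in deprived 1, 2 and 3, against 40.1, 18.3 and 18.9 CPM in complete 1, 2 and 3, so that its proportion was higher in the libraries where SLC3A2 itself was high. For SLC7A6 the proportion was lower in those libraries, with 18.1, 60.5 and 15.7 CPM per 100 CPM of SLC3A2 in deprived 1, 2 and 3, against 21.5, 59.0 and 53.9 CPM in complete 1, 2 and 3. For SLC7A8 it varied least, with 28.8, 29.5 and 24.5 CPM per 100 CPM of SLC3A2 in deprived 1, 2 and 3, against 31.7, 30.8 and 30.7 CPM in complete 1, 2 and 3. This last ratio was the one of 5 tested whose libraries did not overlap between the labels, at 27.6 ± 2.72 in deprived and 31.1 ± 0.532 in complete medium (SD, n = 3 each). Its exact two-sided permutation p of 0.1 is the smallest that 3 against 3 libraries allow, and was 0.5 after Benjamini-Hochberg adjustment over the 5. The other ratios and the sum of the 10 genes had exact permutation p of 0.5 to 0.9.

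SLC7A11, the cystine and glutamate exchanger xCT, also uses SLC3A2 and was the most abundant light chain in the libraries where SLC3A2 was high. It stood at 278, 38.1 and 324 CPM in deprived 1, 2 and 3, against 327, 41.0 and 40.4 CPM in complete 1, 2 and 3, giving by label a log2 fold change of 0.65 (SE 0.88, edgeR adjusted p = 0.999). With 1 library left out that value ran from 0.21, without complete 2, to 2.39, without complete 1. As a share of the summed light chains, SLC7A11 took 60.3%, 30.2% and 60.3% in deprived 1, 2 and 3, against 59.6%, 31.1% and 30.2% in complete 1, 2 and 3. SLC7A6 took 8.97%, 39.3% and 7.57% in deprived 1, 2 and 3, against 9.24%, 37.2% and 36.1% in complete 1, 2 and 3. The leading light chain by transcript was therefore SLC7A11 in deprived 1, deprived 3 and complete 1 and SLC7A6 in deprived 2, complete 2 and complete 3. SLC7A7 stayed between 0.711 and 1.70 CPM and SLC7A10 had 0 counts in every library. An antisense gene, SLC7A11-AS1, held 168, 19 and 189 counts in deprived 1, 2 and 3, against 180, 23 and 30 counts in complete 1, 2 and 3, and without a known strand setting its reads and those of SLC7A11 cannot be told apart.

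**Figure D2:**
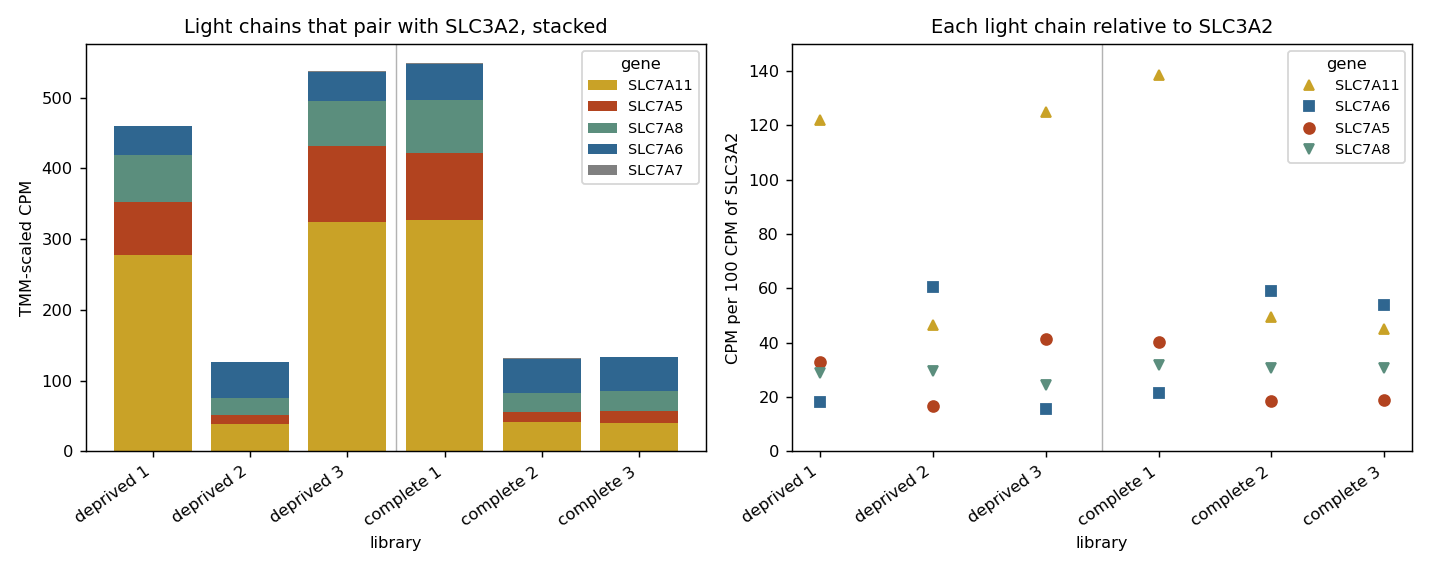
Left, stacked CPM of the light chains that pair with SLC3A2, per library. Right, CPM of each light chain per 100 CPM of SLC3A2. The summed light chains stood at 461, 126 and 537 CPM in deprived 1, 2 and 3, against 548, 132 and 134 CPM in complete 1, 2 and 3, and SLC7A8 kept between 24.5 and 31.7 per 100 CPM of SLC3A2 while SLC7A6 ranged from 15.7 to 60.5.

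Among the cationic carriers, SLC7A1 (CAT1), the main uptake route for arginine and lysine in most cells, was nearly level. It measured 112, 114 and 121 CPM in deprived 1, 2 and 3, against 122, 106 and 102 CPM in complete 1, 2 and 3. The groups overlapped, since complete 1 was the highest of the 6. Averages were 116 ± 4.73 CPM in deprived and 110 ± 10.8 CPM in complete medium (SD, n = 3 each), with a log2 fold change of 0.07 (SE 0.10, edgeR adjusted p = 0.999) and values of 0.02 to 0.15 with 1 library left out. Without deprived 2 and complete 1 it was 0.16 (SE 0.08, edgeR adjusted p = 0.217). The coefficient of variation within labels was 10.1%, below the common value of 14.1% over all genes. The summed level of the 10 genes ran from 324 to 644 CPM, and SLC7A1 made up 19.5%, 34.0% and 18.8% of it in deprived libraries 1, 2 and 3, against 19.6%, 32.6% and 30.9% in complete libraries 1, 2 and 3. SLC7A2 (CAT2), its paralog with a role in macrophages and liver, had 1 count in deprived 1 and 0 counts in each other library, and was not tested. In the libraries with 0 counts the floor allows up to 0.480 CPM.

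SLC43A1 (LAT3) and SLC43A2 (LAT4) carry leucine, phenylalanine and methionine by facilitated diffusion without a heavy chain, and both were scarce. SLC43A1 had 16, 6 and 17 counts in deprived 1, 2 and 3, against 13, 4 and 4 counts in complete 1, 2 and 3, or 2.29, 0.853 and 2.41 CPM in deprived and 2.07, 0.554 and 0.594 CPM in complete medium. It passed the filter on low counts only through deprived 1, deprived 3 and complete 1, so its difference between those libraries and the rest was favoured by the filter. Its log2 fold change by label was 0.81 (SE 0.61, edgeR adjusted p = 0.999), and 2.0 (SE 0.61, edgeR adjusted p = 0.0217) without deprived 2 and complete 1, a choice that fixed its direction beforehand. With 1 library left out it ran from 0.48, without complete 2, to 1.66, without complete 1. SLC43A2 stood at 4.16, 3.98 and 6.81 CPM in deprived 1, 2 and 3, against 6.85, 4.71 and 4.16 CPM in complete 1, 2 and 3. Deprived 3 and complete 1 were the highest, while deprived 1 lay with the low libraries. Its log2 fold change of -0.07 (SE 0.31) was well inside the spread, and turned to 0.30 without deprived 2 and complete 1.

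SLC36A1 (PAT1) and SLC36A4 (PAT4) belong to the family of proton-coupled amino acid transporters; SLC36A1 moves small amino acids, glycine among them, out of lysosomes, and SLC36A4 has high affinity for proline and tryptophan. SLC36A1 had the narrowest range of the 9 genes tested, with 17.5, 18.5 and 17.2 CPM in deprived 1, 2 and 3, against 15.6, 17.3 and 16.5 CPM in complete 1, 2 and 3. The groups overlapped only through complete 2, which lay just above deprived 3. The log2 fold change was 0.10 (SE 0.14, edgeR adjusted p = 0.999). SLC36A4 stood at 27.2, 28.7 and 25.5 CPM in deprived 1, 2 and 3, against 21.8, 23.1 and 25.5 CPM in complete 1, 2 and 3, where deprived 3 and complete 3 were nearly equal. Averages were 27.2 ± 1.60 CPM in deprived and 23.5 ± 1.88 CPM in complete medium (SD, n = 3 each), with a log2 fold change of 0.21 (SE 0.13, edgeR adjusted p = 0.999). With 1 library left out the value was 0.16 to 0.27, and without deprived 2 and complete 1 it was 0.12 (SE 0.15).

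**Figure D3:**
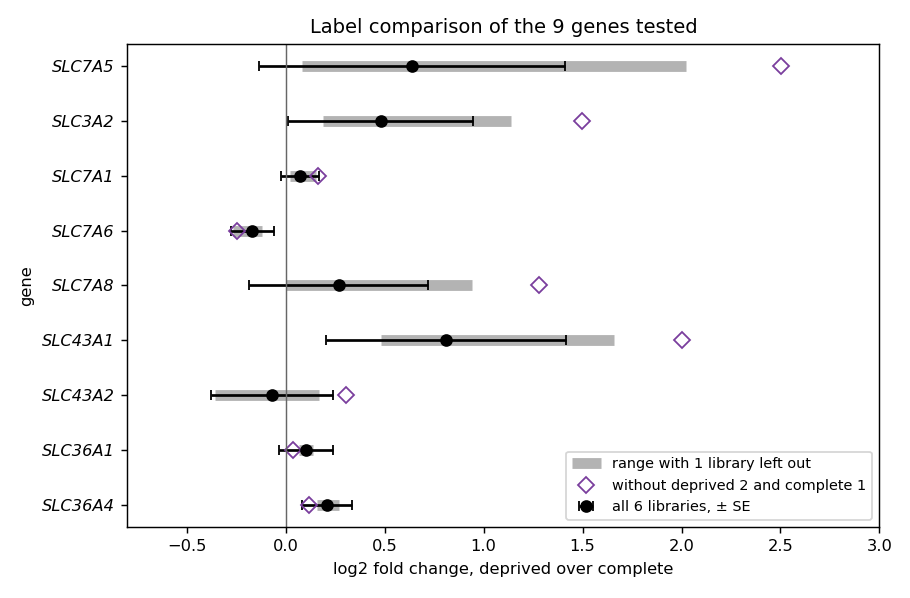
Log2 fold change, deprived over complete, of the 9 genes tested. Black points are the values from all 6 libraries with their standard errors, grey bars the range with 1 library left out, and open diamonds the values without deprived 2 and complete 1, which reach 2.50 for SLC7A5 and 0.04 for SLC36A1.

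Ordered by mean level over the libraries, SLC3A2 stood first and SLC7A1 next, but in deprived 2 and complete 2 and 3 SLC7A1 was above SLC3A2. SLC7A5, SLC7A8 and SLC7A6 followed, and their order depended on the library, since SLC7A5 led in deprived 1, deprived 3 and complete 1 and SLC7A6 in the others. By mean level SLC36A4 and SLC36A1 came next, but SLC36A4 was above SLC7A5 in deprived 2, complete 2 and complete 3 and above SLC7A8 in deprived 2, and SLC36A1 was above SLC7A5 in deprived 2 and complete 2. SLC43A2, SLC43A1 and SLC7A2 were the lowest, in that order, in every library. Levels of different genes are compared here as counts of transcript ends, with no division by length.

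Likeness to SLC7A5 was measured as the root mean square difference in log2 CPM over the 6 libraries after each gene was centred on its own mean, among 9572 other genes with a mean of at least 10 CPM. The nearest was UNC5B, a netrin receptor, at 0.075, with 153, 27.7 and 200 CPM in deprived 1, 2 and 3, against 172, 27.3 and 30.9 CPM in complete 1, 2 and 3. GDF15, a secreted stress hormone, followed at 0.113, then CHAC1, an enzyme that breaks down glutathione, at 0.117, PSAT1, the aminotransferase of serine synthesis, at 0.150, and NUPR1, a stress-induced nuclear protein, at 0.196. SLC3A2 ranked 37th at 0.54 and SLC7A8 45th at 0.61, with ATF4 between them at rank 44. These genes share the libraries and the division between them, so nearness says only that their profiles over 6 libraries resemble each other. SLC7A1, SLC36A1, SLC36A4 and SLC7A6 ranked from 2450 to 7010.

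All 10 genes of the amino acid response list, factors such as ATF4, ATF3, DDIT3 and CEBPB and targets such as ASNS, had their 3 highest values in the libraries where SLC7A5 was high. This was so for 18.3% of all genes. By label 0 of the 10 passed in either direction, 10 had a positive log2 fold change and the median was 0.40. ATF4 measured 409, 162 and 477 CPM in deprived 1, 2 and 3, against 414, 174 and 154 CPM in complete 1, 2 and 3. ASNS, the asparagine synthetase, measured 152, 25.0 and 147 CPM in deprived 1, 2 and 3, against 134, 26.2 and 19.9 CPM in complete 1, 2 and 3. Log2 fold changes by label ran from 0.14 for CEBPB to 0.86 for ASNS, each with an edgeR adjusted p of 0.999; the values were 0.34 for ATF3, 0.23 for ATF5, 0.25 for DDIT3, 0.25 for CEBPG, 0.46 for TRIB3, 0.55 for CHAC1 and 0.77 for NUPR1. The size of these values depended on which library was left out, and the direction turned only for CEBPG and TRIB3. Leaving out complete 1 gave the highest value for each of the 10, such as 2.22 for ASNS, 2.38 for NUPR1, 2.05 for CHAC1, 1.09 for ATF4, 0.89 for ATF3, 0.69 for DDIT3, 0.49 for ATF5 and 0.37 for CEBPB. The lowest values were 0.21 for ATF4, 0.09 for ATF3, 0.03 for DDIT3, 0.0078 for ATF5, 0.04 for CHAC1 and -0.079 for TRIB3 without deprived 3, 0.01 for CEBPB, -0.032 for CEBPG and 0.34 for NUPR1 without complete 2, and 0.44 for ASNS without complete 3. Without deprived 2 and complete 1, all 10 were called higher, against 8.57% of all genes. Since all 10 were highest in deprived 1, deprived 3 and complete 1, their direction after leaving out that pair was fixed beforehand. The list was also written with earlier results of these data known, so this count is no independent test.

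**Figure D4:**
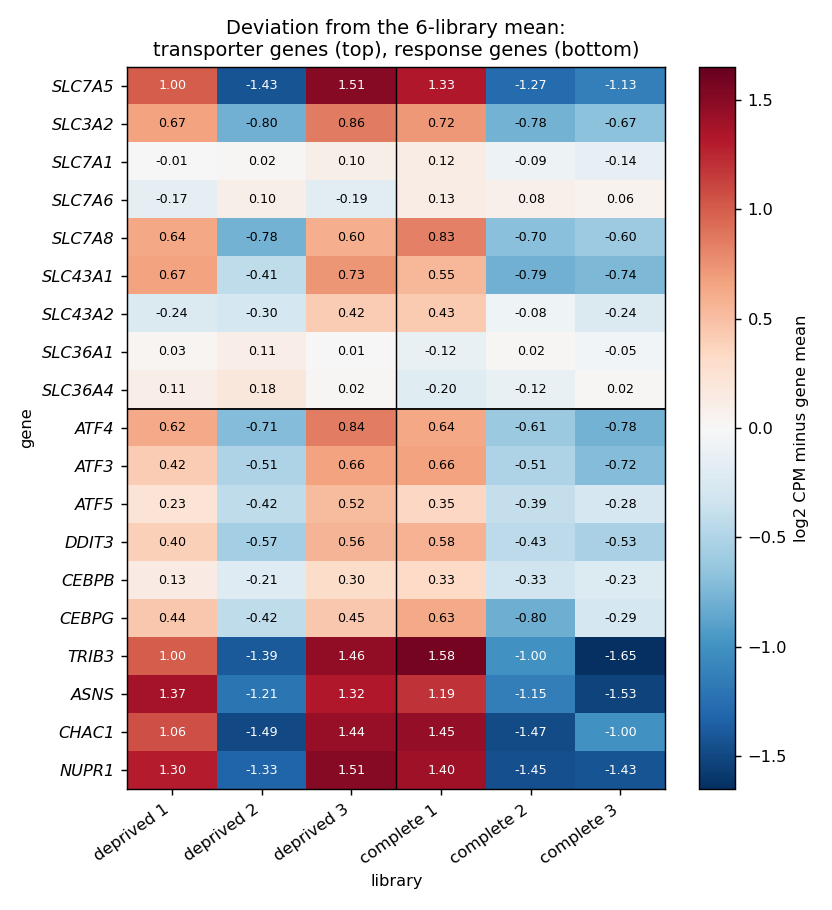
Log2 CPM minus the gene's 6-library mean, for the 9 transporter genes tested above the line and the 10 amino acid response genes below it, with libraries in columns, deprived on the left. SLC7A5, SLC3A2, SLC7A8 and SLC43A1 show the columns deprived 1, deprived 3 and complete 1 in red like the response genes, whereas SLC7A1, SLC7A6, SLC36A1 and SLC36A4 keep within about 0.20 of their means.

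Other genes that handle the same amino acids were counted in the same way, and 0 passed the edgeR test in either direction in every list. Of 12 further members of the SLC7, SLC3, SLC36 and SLC43 families, 3 were tested, 2 of them with a positive log2 fold change and a median of 0.09; the smallest p belonged to SLC7A4, a relative of SLC7A1, at 0.717, 0.853 and 1.42 CPM in deprived 1, 2 and 3, against 1.59, 1.52 and 2.23 CPM in complete 1, 2 and 3. The groups did not overlap, as for 3.49% of all genes in that direction, and the log2 fold change was -0.83 (SE 0.42, edgeR adjusted p = 0.999). These values rest on 5, 6 and 10 counts in deprived 1, 2 and 3, against 10, 11 and 15 counts in complete 1, 2 and 3. SLC7A4 passed the filter on low counts only through the complete libraries, so this difference was favoured by the filter. Of 20 other carriers, listed as of the plasma membrane though SLC6A17 is vesicular, 11 were tested and 7 were positive, with a median of 0.11. In deprived 1, deprived 3 and complete 1, 6 had their 3 highest values and 1 its 3 lowest, beside 18.3% and 17.7% of all genes. SLC6A17, a vesicular carrier of neutral amino acids, had the smallest p among them, with averages of 5.84 ± 0.435 CPM in deprived and 7.84 ± 0.811 CPM in complete medium (SD, n = 3 each) and no overlap between the groups. Its log2 fold change was -0.42 (SE 0.20, edgeR adjusted p = 0.999). SLC7A4 and SLC6A17 were named for the smallest p of their lists, a choice that favours groups without overlap. SLC1A5 (ASCT2), which imports the glutamine that LAT1 gives back and was chosen after its values were seen, stood at 193, 83.3 and 177 CPM in deprived 1, 2 and 3, against 170, 79.6 and 62.7 CPM in complete 1, 2 and 3.

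Of 9 lysosomal carriers, 8 were tested and 5 were positive, with a median of 0.02. In deprived 1, deprived 3 and complete 1, 3 were highest and 1 lowest, beside 18.3% and 17.7% of all genes. SLC38A7, a lysosomal exporter of glutamine and asparagine, stood at 36.9, 20.5 and 40.1 CPM in deprived 1, 2 and 3, against 37.9, 18.8 and 17.1 CPM in complete 1, 2 and 3, with a log2 fold change of 0.41 (SE 0.33), which ran from 0.20 without complete 3 to 0.85 without complete 1. The genes of amino acid sensing at the lysosome had 12 of 15 tested, 10 positive and a median of 0.16, with 8 of the 12 highest in deprived 1, deprived 3 and complete 1 (18.3% of all genes). LAMTOR3, a subunit of the Ragulator scaffold, had the smallest p there, at 23.6 ± 3.41 CPM in deprived and 19.4 ± 3.65 CPM in complete medium (SD, n = 3 each). SESN2, the leucine sensor Sestrin 2, chosen after its values were seen, stood at 275, 89.8 and 291 CPM in deprived 1, 2 and 3, against 295, 69.8 and 74.4 CPM in complete 1, 2 and 3.

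Enzymes that consume the imported amino acids were counted last. Of 18 genes of branched-chain amino acid breakdown, all tested, 11 were positive with a median of 0.02. In deprived 1, deprived 3 and complete 1, 3 were highest and 2 lowest, beside 18.3% and 17.7% of all genes. ACADSB, a dehydrogenase of isoleucine breakdown, averaged 17.6 ± 2.68 CPM in deprived and 13.8 ± 0.827 CPM in complete medium (SD, n = 3 each), a log2 fold change of 0.35 (SE 0.16, edgeR adjusted p = 0.999). Of 15 genes of arginine, ornithine and polyamine entry, 11 were tested and 7 were positive with a median of 0.02. In those libraries 2 were highest and 2 lowest, beside 18.3% and 17.7% of all genes. ARG2, the mitochondrial arginase, averaged 109 ± 6.20 CPM in deprived and 97.0 ± 3.22 CPM in complete medium (SD, n = 3 each), with a log2 fold change of 0.17 (SE 0.08). Neither ACADSB nor ARG2 had overlapping groups, as was so for 3.48% of all genes in that direction, and both missed the threshold. Each was named for the smallest p of its list, a choice that favours groups without overlap.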

How the data were processed

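The values are unnormalized read counts for each gene symbol, as deposited by the authors in 1 table. Bowtie2 is named in the submitters' processing notes. Its version, the counting program, annotation, genome build and strand setting: not given in the sources used here. Each library started from 500 ng of RNA, per the labels' protocols. Columns were matched to samples by title, with 0 left over. Counts were fitted over the whole table in edgeR 4.0.16 (R 4.3.3): filterByExpr at a minimum count of 10, TMM scaling, the quasi-likelihood test of the group and Benjamini-Hochberg adjustment over 13068 genes. A standard error is the log2 fold change divided by the square root of F. TMM also scaled the CPM; a prior count of 3 was added for log2 CPM. Ratios were tested with exact permutation tests in SciPy 1.17.1. Alternatives were other scalings and filters, DESeq2 1.42.0, limma-voom (limma 3.58.1), shared symbols summed, the replicate number as a block, and each library left out; leaving out deprived 2 and complete 1 together was chosen after seeing the data. The genes, lists and motifs were chosen with earlier results of these data known. Genes named beyond the 10 are the response genes, the light chains of SLC3A2, the 5 genes nearest to SLC7A5, and from each other list those past the threshold (at most 2) or the one with the smallest p; SLC1A5 and SESN2 fall outside that rule. Counts of SLC7A5 and of overlapping genes are uncertain, since the handling of reads with several alignments is not given. The fit was tested on simulated counts. Floors cover counting error only.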

Additional observations from a re-analysis of the deposited data

How the results depend on the processing

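The count of genes called by label was 0 under every planned setting; the pair of libraries left out together, chosen after the data were seen, gave 2096, with log2 fold changes of 2.50 for SLC7A5, 1.50 for SLC3A2, 1.28 for SLC7A8 and 2.0 for SLC43A1 that passed the threshold and 0.30 for SLC43A2, which changed sign; the cause was not tested. With 1 library left out, values that changed sign ran from -0.36 to 0.17 for SLC43A2, from -0.00021 to 0.94 for SLC7A8, from -0.032 to 0.74 for CEBPG and from -0.079 to 2.15 for TRIB3, and the differences from -0.954 to 11.7 for SLC7A5 per 100 CPM of SLC3A2 and from -7.77 to 33.7 for the summed light chains. The other planned settings turned no direction among the 29 genes for which they were run; SLC1A5 and SESN2 were not among these. At an unadjusted edgeR p under 0.05 there were 247 of 13068 genes with all libraries, 1037 without deprived 2 and 1141 without complete 1, and DESeq2 gave 140 and limma-voom 251. SLC43A1 and SLC43A2 were not tested under the filter of CPM 5 in 3 libraries. In the main filter SLC43A1 passed only through libraries where it was high, which favoured its difference. No pairing is stated for equal replicate numbers, whose libraries' deviations from the group means correlated at 0.384, 0.381 and -0.281 across genes for numbers 1, 2 and 3. Unequal numbers reached higher values, 0.414 for deprived 3 with complete 1 and 0.419 for deprived 2 with complete 3. The remaining unequal pairs ran from -0.597 to -0.235. A replicate block called 0 genes, and 429 had an unadjusted p under 0.05. Depth limits SLC7A2 and SLC43A1, which had 0 to 17 counts. Outliers were not tested in groups of 3.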
